A study of Mus musculus with 2 samples.

Results

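Interferon-stimulated genes are the genes that a cell transcribes after it senses an interferon, and 48 mouse genes of this kind were followed here across the cells of 6 transplanted hearts. The members are set by a list of symbols, and no measured value enters that rule. The list was, however, chosen with earlier results of these data known. A column was found for 47 of the 48 among the 22337 symbols of the matrix, and all 47 had at least 1 UMI (unique molecular identifier, the tag that marks each captured transcript). *Mx1* was not analysed here. Donor hearts were from Bm12 mice, which carry an altered MHC class II molecule that CD4+ T cells of C57BL/6 (B6) mice recognise. They were either Il33+/+, labelled IL-33+, or Il33-/-, labelled IL-33-, and all were placed in B6 recipients and taken on postoperative day (POD) 14. Each group had 3 hearts. A hashtag antibody of its own marked the cells from every graft before pooling, and single-cell RNA sequencing was done on cells enriched for immune cells on a density gradient. Donor and recipient cells were not separated in these files. The comparison between grafts asks how graft IL-33, an alarmin kept in the nucleus of stromal cells and released on injury, bears on the cells of the graft.

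Type I interferons (interferon-β and the interferon-α family) signal through the receptor chains encoded by *Ifnar1* and *Ifnar2* to a complex of transcription factors that binds the interferon-stimulated response element (ISRE). Interferon-γ, made by NK cells and T cells, signals through *Ifngr1* and *Ifngr2* to the gamma-activated site (GAS). Many genes answer to both. In heart transplants, interferon-γ is best known for its role in rejection and in activation of macrophages.

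The members were grouped by role. Sensors of nucleic acid were *Ifih1*, *Ddx58*, *Dhx58*, *Zbp1* and *Eif2ak2*. Transcription factors were *Irf7*, *Irf9* and *Stat2*. The ubiquitin-like modifier *Isg15* was set with *Usp18*, the protease that removes it and that also dampens receptor signalling, and *Herc6*, a ligase that attaches it. The Ifit family, which binds foreign RNA, had 4 members and the OAS family of oligoadenylate synthetases and their relatives had 5. The 8 other antiviral effectors measured included *Rsad2* (viperin), *Bst2* (tetherin) and *Ifitm3*, which blocks viral entry. The guanylate-binding proteins (GBPs) and the immunity-related GTPases (IRGs), which act against pathogens in vacuoles, had 5 members each. The other 9 included *Ifi27l2a*, *Sp100* and *Trim30a*.

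Promoter sequence was examined because the members are defined by their response to these transcription factors. A RefSeq window (build GRCm38.p6) of 250 bases before to 50 bases after the start site was found for 38 of the 48 members. The others, *Mx1*, *Dhx58*, *Oas2*, *Usp18*, *Gbp4*, *Rtp4*, *Parp14*, *Ifi27l2a*, *Iigp1* and *Zbp1*, had no entry. An ISRE core, spelled as GAAA, any 2 bases and GAAA, and searched on both strands, was in the windows of 23 of these 38 genes (60.5%) and of 3.99% of all 27025 genes with a window. A GAS, spelled TTCNNNGAA, was in 11 of the 38 (28.9%) and in 9.55% of all genes, and both motifs were in 8. All 4 GBP windows and 3 of 4 IRG windows held an ISRE core, as did 3 of 4 Ifit windows and 2 of 4 OAS windows. These are matches of letters and not measured binding. The windows printed here are parts of those of 7 members to which the results return, 5′ to 3′ on the strand of the gene, with ISRE cores in capitals and all before the RefSeq start site. *Gbp2* and *Irgm1* are given by 30 bases only, since their windows overlap exons of the GENCODE annotation, in which both genes start further upstream.
Isg15, chr4:156200843-156200928, minus strand: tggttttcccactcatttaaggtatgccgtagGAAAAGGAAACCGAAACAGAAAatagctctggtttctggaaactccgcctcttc
Ifit1, chr19:34640753-34640845, plus strand: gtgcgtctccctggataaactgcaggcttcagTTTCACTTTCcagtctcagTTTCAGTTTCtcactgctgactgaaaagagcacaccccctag
Rsad2, chr12:26456531-26456604, minus strand: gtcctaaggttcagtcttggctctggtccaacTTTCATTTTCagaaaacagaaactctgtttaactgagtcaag
Bst2, chr8:71537555-71537634, minus strand: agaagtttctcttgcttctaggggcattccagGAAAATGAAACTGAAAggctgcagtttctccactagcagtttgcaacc
Trim30a, chr7:104465194-104465261, minus strand: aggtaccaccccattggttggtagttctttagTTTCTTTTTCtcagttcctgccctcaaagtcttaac
Gbp2, chr3:142620594-142620623, plus strand: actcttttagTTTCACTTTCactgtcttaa
Irgm1, chr11:48871428-48871457, minus strand: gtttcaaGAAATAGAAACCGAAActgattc
In *Isg15* 3 cores overlap in a single run that begins 78 bases before the RefSeq start site. *Ifit1* has 2 separate cores, which begin 104 and 85 bases before it, and the overlapping pair of *Irgm1* begins 30 and 24 bases before the RefSeq start, which is inside the gene as GENCODE gives it.

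The 6 hearts gave 4441 cells, from 230 to 1666 per heart, with 908190 to 7013333 UMIs per heart and a median of 3699 UMIs per cell. The authors' annotation places them in 14 types. Hearts contributed unevenly: replicate 2 of the group labelled IL-33+ had 4 Mo-DCs, 5 monocytes, 6 fibroblasts, 6 cDCs and 2 unconventional T cells, and replicate 2 of the group labelled IL-33- had 4 B cells and 4 fibroblasts. *Il33* itself was read in fibroblasts at 24.3, 0 and 50.7 CPM (the UMIs of a gene scaled to the same total in every cell) in replicates 1 to 3 of the group labelled IL-33+ and at 32.6, 73.8 and 16.1 CPM in the group labelled IL-33-. The part of the gene deleted is not given in the sources used here and 3′ tags may lie outside it, so this transcript does not check the labels. Markers matched most annotated types, but Mo-DCs, cDCs, unconventional T cells and fibroblasts also held markers of others. In Mo-DCs, 5 neutrophil markers (*S100a8*, *S100a9*, *Retnlg*, *Csf3r*, *Cxcr2*) summed to between 1407 and 69370 CPM in a heart, and 6 macrophage markers to between 1210 and 3445 CPM. The cDCs held 232 CPM of *Siglech* and 502 CPM of *Ccr9*, markers of plasmacytoid DCs. Of 83 unconventional T cells, 45 (54.2%) held at least 2 T cell and 2 macrophage markers. NKT cells were near NK cells in *Gzma* (4418 against 5962 CPM), and *Cd3e* was found in 25.07% of them, against 92.05% of Tem/eff. Fibroblasts held their own markers (*Dcn* in 88.3% of cells) but also endothelial ones, with *Pecam1* in 37.6%, *Cdh5* in 15.5% and *Kdr* in 13.9% of cells. No barcode was assigned to more than 1 heart.

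Across cell types, the interferon-stimulated genes were most abundant in cells annotated as monocytes and fibroblasts. They were least abundant in B cells, central memory T cells (Tcm), NK cells and NKT cells. The 47 members together supplied 0.601% ± 0.176 (SD, n = 6 hearts) of the UMIs of monocytes and 0.556% ± 0.168 of those of fibroblasts, followed by macrophages (0.404% ± 0.152) and unconventional T cells (0.403% ± 0.101). Mo-DCs (0.332% ± 0.0943) and cDCs (0.329% ± 0.109) came next. Unconventional T cells were not ranked as lymphoid here. Their macrophage markers summed to between 1338 and 3193 CPM in a heart and their T cell markers to between 176 and 1112 CPM. Of the lymphoid types, Tregs (0.269% ± 0.0323) were highest, above Tem/eff (effector and effector memory T cells, 0.231% ± 0.068), Trm-like cells (resembling resident memory T cells, 0.227% ± 0.0316) and naive T cells (Tn, 0.224% ± 0.0721). NK cells (0.168% ± 0.0109), NKT cells (0.161% ± 0.0144), Tcm (0.147% ± 0.0318) and B cells (0.135% ± 0.0284) had the lowest shares. Each type in this order overlapped with the next when single hearts were compared. Without *Ifi27l2a*, *Ifitm3* and *Gbp2*, the 3 members with the most UMIs, fibroblasts came first at 0.414% and monocytes next at 0.315%. As a mean over cells, the share in fibroblasts was 0.486%, 0.507% and 0.524% in the group labelled IL-33+ and 0.870%, 0.45% and 0.647% in the other. In fibroblasts without a UMI of the endothelial markers, chosen for description after the values were seen, it was 0.371%, 0.217% and 0.417% against 0.355%, 0.726% and 0.673%. These came from as few as 2 cells in a heart. No test was made between types, since the types were annotated from the expression of the same cells. The plot of UMI share by heart gives these values.

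**Figure D1:**
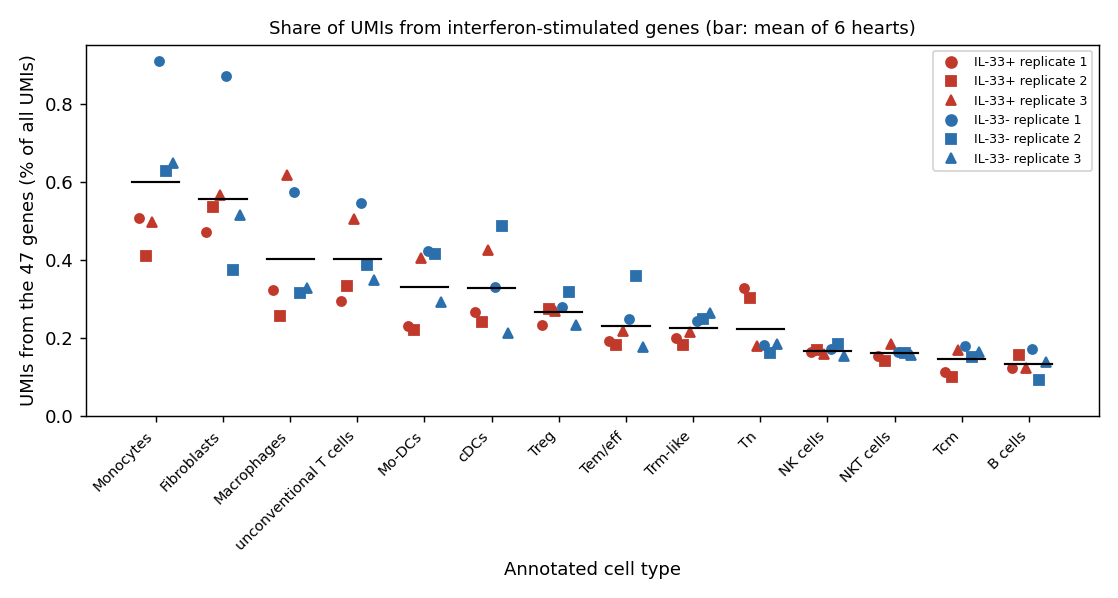
Share of all UMIs that came from the 47 interferon-stimulated genes (vertical axis, percent) in each annotated cell type (horizontal axis, ordered by mean), with 1 point per heart, colour for graft group, symbol for replicate and a bar for the mean of 6 hearts. Monocytes and fibroblasts stand highest, and in monocytes each point of the group labelled IL-33- lies above each point of the other group.

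Single members did not share the order of their sum. Fibroblasts had the highest level of 19 members, monocytes of 11 and Mo-DCs of 7 (3 when UMIs were summed per heart), while the other 10 were highest in 7 further types. Each level here is the CPM averaged across a type's cells within a heart, and 3′ tags are counted once per transcript, so they do not scale with gene length. The heatmap of levels sets all 47 members beside each other.

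**Figure D2:**
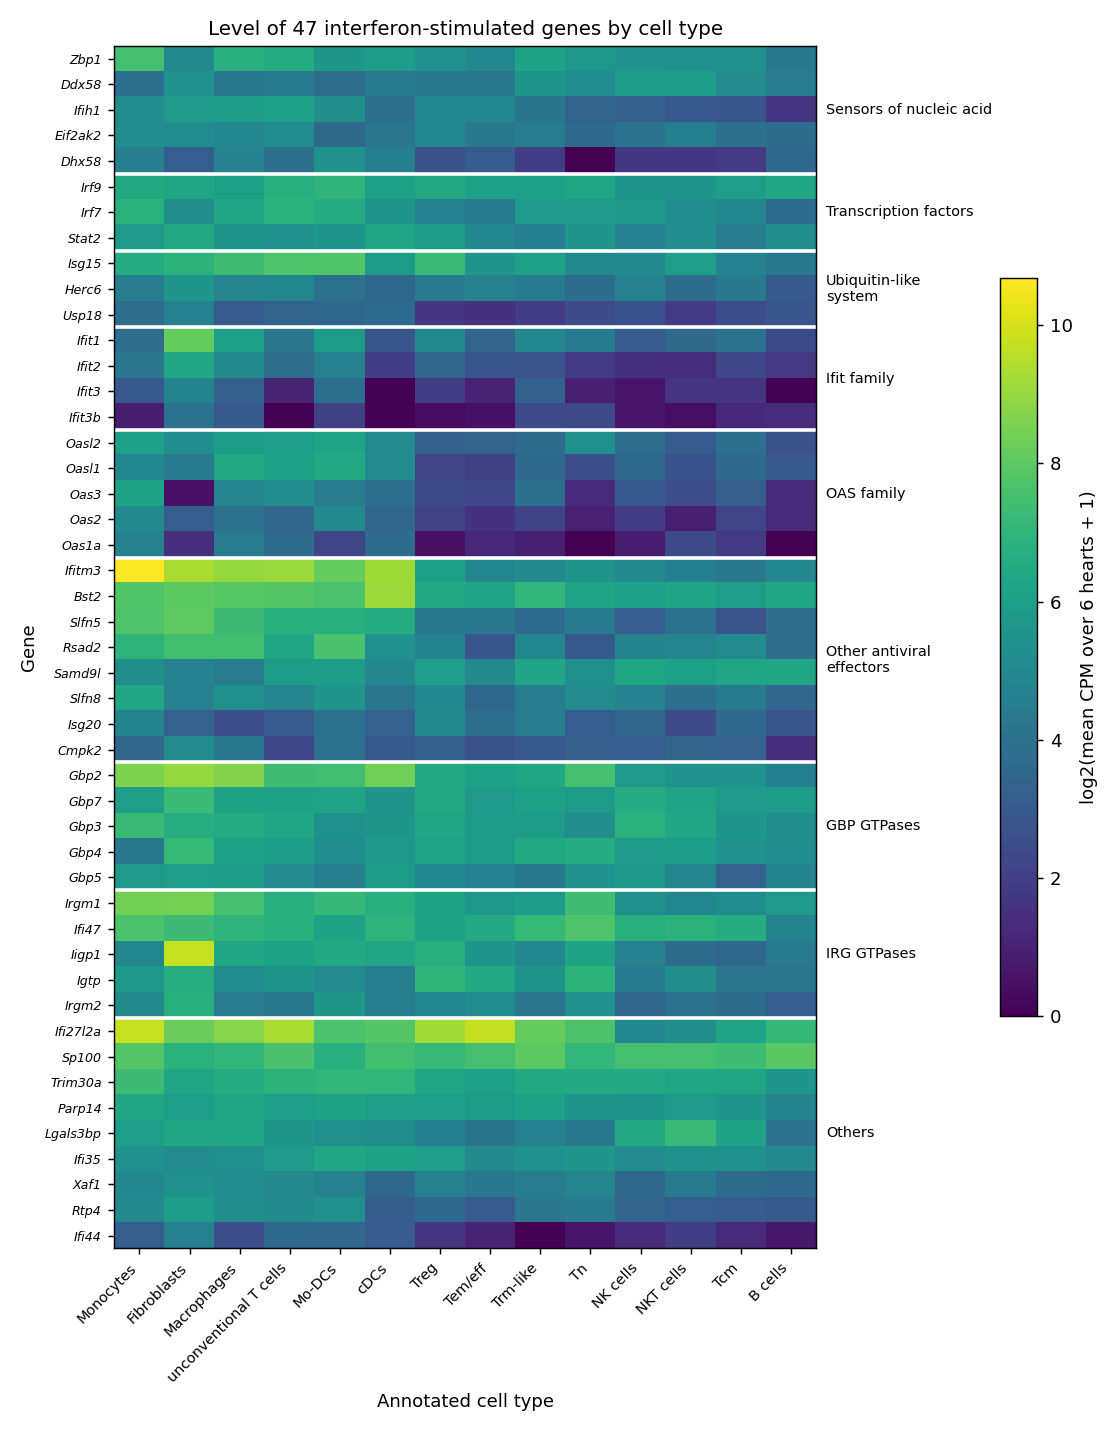
Mean level of each of 47 interferon-stimulated genes (rows, grouped by role) in each annotated cell type (columns, in the order of total share), as log2(mean CPM over 6 hearts + 1). *Ifitm3* in monocytes and *Iigp1* in fibroblasts are the brightest cells of their rows, and the Ifit family is brightest in fibroblasts.

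Among antiviral effectors, *Ifitm3* (chromosome 7, 141009586 to 141010770, minus strand, GENCODE vM21 on GRCm38, as are all gene positions below) set monocytes apart. Its level in monocytes was 1401, 1935 and 1732 CPM in replicates 1 to 3 of the group labelled IL-33+ and 1703, 1441 and 1630.0 CPM in the group labelled IL-33-. Each of these was above every heart's level in fibroblasts, the next type, at 647 ± 128 CPM (SD, n = 6), and the level in Tcm was 18.1 ± 6.11 CPM. *Bst2* (chromosome 8, 71534255 to 71537456) was highest in cDCs at 550.1 ± 273 CPM, above fibroblasts (252 ± 141 CPM) in 6 of 6 hearts, though the ranges of the types overlapped. In cDCs without a UMI of *Siglech* or *Ccr9*, markers of plasmacytoid DCs, it lay between 164 and 292 CPM. *Slfn5*, a member of the Schlafen family, was highest in fibroblasts (260.1 ± 195 CPM) and monocytes (211 ± 191 CPM), with both averages raised by replicate 1 of the group labelled IL-33-, at 632 and 591 CPM. *Rsad2* (chromosome 12, 26442746 to 26456452) was highest in Mo-DCs (198 ± 172 CPM), fibroblasts (175 ± 225 CPM) and macrophages (172 ± 188 CPM), which cannot be ordered given spreads as large as the means.

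Summed by family, the GTPases were highest in fibroblasts. *Iigp1* on chromosome 18 was read in fibroblasts at 801, 429 and 842 CPM in the group labelled IL-33+ and at 1059, 1193 and 866 CPM in the group labelled IL-33-. The lowest of these hearts stood above the highest heart of Tregs, the next type, whose mean was 107 ± 103 CPM. *Irgm1* (chromosome 11, 48861968 to 48871683), a regulator of the other IRGs, was at 350.1 ± 90.5 CPM in fibroblasts and 336 ± 129 CPM in monocytes, which overlapped, and *Ifi47* at 210.1 ± 139 CPM in Tn and 202 ± 131 CPM in monocytes. *Gbp2* (chromosome 3, 142620602 to 142638008) was at 503 ± 276 CPM in fibroblasts, 413 ± 131 CPM in macrophages and 393 ± 241 CPM in monocytes, with 23.3 ± 24.3 CPM in B cells. Summed over 5 genes, IRGs reached 1584 CPM in fibroblasts against 651 CPM in monocytes and 604 CPM in Tn.

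The Ifit and OAS families did not peak in the same cells. The 4 Ifit genes summed to 405 ± 412 CPM in fibroblasts and 113 ± 132 CPM in macrophages, and *Ifit1* (chromosome 19, 34640871 to 34650009) supplied most of it, at 282 ± 319 CPM in fibroblasts. Its fibroblast level per heart was 32.4, 609 and 97.6 CPM in the group labelled IL-33+ and 761, 35.7 and 156 CPM in the group labelled IL-33-, so that each group held hearts at both ends of the range. The 3 endothelial markers in the same cells summed to 345, 666 and 486 CPM against 753, 52.3 and 197 CPM. In the fibroblasts without a UMI of these markers, chosen for description after the values were seen, *Ifit1* was at 3.92, 0 and 67.7 CPM against 258, 71.4 and 212 CPM, from as few as 2 cells in a heart. The groups did not overlap there, but the nearest hearts were at 67.7 and 71.4 CPM, the latter from 2 cells. The 5 OAS genes instead summed to 225 CPM in Mo-DCs, 223 CPM in monocytes and 214 CPM in macrophages against 67.6 CPM in fibroblasts. *Oasl2*, the highest of them as a mean over all types, was at 74.6 ± 69.7 CPM in Mo-DCs, where *Oasl1* was at 91.5 CPM. *Isg15* (chromosome 4, 156199424 to 156200818) was highest in Mo-DCs (216 ± 115 CPM) and unconventional T cells (215 ± 112 CPM), and 19.0 ± 25.2 CPM in B cells.

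Some members were spread evenly or led by lymphocytes. *Sp100*, a nuclear body protein, lay between 105 and 257 CPM in all 14 types, and *Irf9*, a transcription factor of the interferon response, between 46.7 and 123 CPM. *Zbp1* (chromosome 2, 173206612 to 173218923), a sensor of Z-form nucleic acid, was the highest of the sensors, at 179 ± 98.3 CPM in monocytes. *Trim30a* (chromosome 7, 104409025 to 104465193) was also highest in monocytes, at 157 ± 103 CPM. *Ifi27l2a* (chromosome 12, 103442167 to 103443680), the most abundant member with 7170 UMIs, was at 855 ± 277 CPM in monocytes and 832 ± 508 CPM in Tem/eff, and at 31.0 ± 16.6 CPM in NK cells. *Lgals3bp* and *Ddx58* were highest in NKT cells, and *Igtp* and *Isg20* in Tregs. At the low end, *Ifit3b* had 89 UMIs in all cells and *Ifit3*, a close paralogue, 173, and reads shared by the 2 genes could be split between them. Exons of *Ifi47*, *Irf9*, *Gbp4*, *Igtp*, *Irgm2* and *Rtp4* overlap those of another gene on the same strand in the annotation, so their counts are less certain.

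Between graft groups, no member was called in any of the 14 types once p-values were adjusted by Benjamini-Hochberg, with 0.05 as the threshold (limma on log2(CPM + 10) per heart, adjusted over all genes tested in the type, n = 3 hearts per group). Of all genes tested, between 0% and 0.0702% were called in a type. Members with an unadjusted p of 0.05 or less numbered 1 of 27 in B cells and 1 of 40 in NKT cells, the fewest. They were most numerous in monocytes, at 8 of 44. Of all genes tested, 293 of 7014, 454 of 9296 and 347 of 7124 had such a p in B cells, NKT cells and monocytes. limma-voom, run on the UMIs recovered from the deposited values, also called 0 members in each type and between 0 and 22 genes of any kind. Differences below are IL-33+ over IL-33-, so that a negative log2 value is a lower level in the group labelled IL-33+. Genes whose groups did not overlap were counted over all genes only in monocytes, fibroblasts and the average over types. In other types such members are named without that background.

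Of the 14 types, monocytes had the most one-sided pattern. Of the 44 members that passed the filter on low values, 40 were lower in the group labelled IL-33+ and 4 higher, where 50.9% of all 7124 genes tested were lower. The members' median log2 difference was -0.79, against -0.01 over all genes. At an unadjusted p of 0.05 or less, 8 of 44 were lower and 0 higher, where 2.57% of all genes tested were lower at that p. In 8 of 44 the groups did not overlap and the group labelled IL-33+ was the lower, where this held for 4.69% of all genes tested. Of all genes, 0.014% were called at the adjusted threshold. The UMI share of all members in monocytes was 0.509%, 0.412% and 0.499% in replicates 1 to 3 of the group labelled IL-33+ and 0.912%, 0.628% and 0.649% in the group labelled IL-33-. Tcm came next and leaned the same way, with 30 of 37 members lower and 7 higher, where 52.7% of all 7768 genes tested were lower. The median there was -0.37, against -0.03 over all genes. The lean was thus not particular to monocytes.

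*Gbp2* had the smallest p among members in monocytes. Its level was 402, 40.3 and 240.0 CPM in the group labelled IL-33+, from 216, 1 and 20 UMIs, and 457, 761 and 456 CPM in the group labelled IL-33-, from 103, 30 and 38 UMIs. Every heart labelled IL-33+ was below every other heart. The log2 difference was -1.67 (SE 0.39), with an unadjusted p of 8.86e-05 and an adjusted p of 0.21 by limma. *Ifi47* was at 258, 0 and 77.6 CPM in the group labelled IL-33+ and at 285, 331 and 262 CPM in the group labelled IL-33-, a log2 difference of -2.29 (SE 0.56, adjusted p = 0.214 by limma). The groups again did not overlap, with the nearest hearts at 258 and 262 CPM. *Trim30a* was at 92.2, 0 and 161 CPM in the group labelled IL-33+ and at 171, 223 and 296 CPM in the group labelled IL-33-, a log2 difference of -2.07 (SE 0.56, adjusted p = 0.378 by limma). The zeros of both genes came from replicate 2, in which 5 monocytes gave 28910 UMIs. Without this heart the log2 differences were -0.78 for *Gbp2*, -0.97 for *Ifi47* and -0.83 for *Trim30a*.

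The other 5 members in monocytes whose groups did not overlap were *Zbp1*, *Ifi27l2a*, *Lgals3bp*, *Oas3* and *Dhx58*. *Zbp1* averaged 96.7 ± 39.8 CPM in the group labelled IL-33+ and 262 ± 45.3 CPM in the other (log2 difference -1.42, SE 0.39), and *Ifi27l2a* 626 ± 147 CPM and 1085 ± 111 CPM (log2 difference -0.80, SE 0.23), each with an adjusted p of 0.378 by limma. *Isg15* averaged 52.8 ± 64.8 CPM in the group labelled IL-33+ and 139 ± 113 CPM in the group labelled IL-33-, and the groups overlapped. *Ifitm3*, the most abundant member in this type, averaged 1689 ± 269 CPM and 1591 ± 135 CPM, a log2 difference of 0.08 (SE 0.19) that was smaller than the spread between hearts. Besides *Ifitm3*, the members higher in the group labelled IL-33+ were *Stat2*, *Ddx58* and *Irf9*. The plot of log2 differences in monocytes shows all 44.

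**Figure D3:**
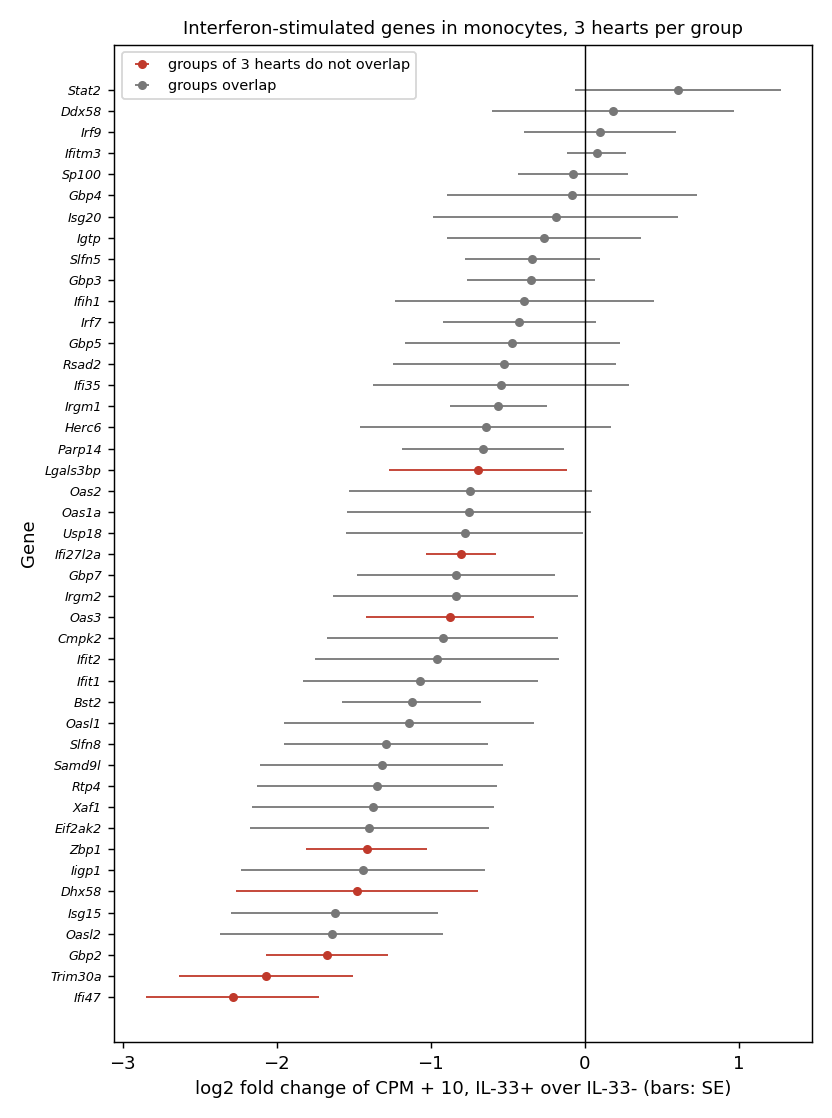
Log2 difference of level between graft groups in monocytes (horizontal axis, IL-33+ over IL-33-, CPM + 10, bars for the standard error) for the 44 interferon-stimulated genes that passed the filter on low values (vertical axis). Of the 44 points, 40 lie to the left of 0, and red marks the genes whose 3 hearts per group did not overlap.

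The monocyte pattern rested on few cells in most hearts, and the size of its differences and the members called varied with the hearts used. With only the 4 hearts of 10 or more monocytes, 37 of 44 members were lower and 0 were called. The members' median was then -0.72, against 0.03 over all genes. Monocytes numbered 82, 5 and 15 in the group labelled IL-33+ and 33, 7 and 12 in the group labelled IL-33-. Without replicate 3 of the group labelled IL-33+, 4 members were called (*Gbp2*, *Ifi47*, *Trim30a* and *Bst2*, with adjusted p from 7.28e-05 to 0.0249 by limma), while 29 of 37 members were lower when replicate 1 of the other group was left out. The 3 monocyte markers summed to 4074, 4249 and 3601 CPM in the group labelled IL-33+ and to 5040.0, 5504 and 4905 CPM in the group labelled IL-33-, and the 6 macrophage markers to between 200.1 and 517 CPM and between 343 and 606 CPM. The T cell markers *Cd3e*, *Cd3g*, *Cd3d* and *Trac* were between 0 and 11.4 CPM in all 6 hearts. The part of these markers in the result was not tested. With each cell thinned to 1500 UMIs, the fewest of any cell, monocytes with a UMI of at least 10 members were 6 of 82, 0 of 5 and 0 of 15 in the group labelled IL-33+ and 9 of 33, 2 of 7 and 2 of 12 in the group labelled IL-33-. The median monocyte held 5, 3 and 4 members against 6, 8 and 5.5.

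Naive T cells leaned in the other direction. Of 33 members tested, 20 were higher in the group labelled IL-33+ and 13 lower, with a median log2 difference of 0.33 against -0.01 over all genes. With no filter on low values, 25 of 45 were higher and the median was 0.08. At an unadjusted p of 0.05 or less, 4 of 33 were higher, where 2.46% of all genes tested were. *Ifi27l2a* in Tn was at 254, 492 and 171 CPM in the group labelled IL-33+ and at 96.4, 119 and 108 CPM in the group labelled IL-33- (log2 difference 1.29, SE 0.37, adjusted p = 0.952 by limma). *Gbp2* in Tn was at 487, 187 and 126 CPM against 126, 87.9 and 53.0 CPM (log2 difference 1.33, SE 0.43, adjusted p = 0.952). In both genes the groups did not overlap, although the nearest hearts for *Gbp2* differed by less than 1 CPM, and without replicate 1 of the group labelled IL-33+ its log2 difference was 0.80. Hearts gave as few as 14 Tn, and as few as 2 UMIs of *Gbp2*.

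*Ifi27l2a* went the other way in other T cells. In Trm-like cells it was at 229, 147 and 208 CPM in the group labelled IL-33+ and 474, 244 and 426 CPM in the group labelled IL-33- (log2 difference -0.90, SE 0.26, adjusted p = 0.81 by limma). In Tregs it was at 294, 523 and 615 CPM against 617, 794 and 712 CPM (log2 difference -0.62, SE 0.25, adjusted p = 0.913). Neither pair of groups overlapped, but the nearest hearts for Tregs were at 615 and 617 CPM, and without replicate 1 of the group labelled IL-33+ the log2 difference was -0.31. The differences between these types were not tested for single types.

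Further members in Trm-like cells and Tem/eff had groups that did not overlap. How many of all genes had groups apart was not counted in these types, so such members are not counted here. In Tem/eff, 3 of 39 members were lower and 0 higher at an unadjusted p of 0.05 or less, where 218 and 196 of all 9393 genes were. In Trm-like cells, 6 of 39 members were lower at that p, where 2.6% of all genes tested were. Another 1 was higher, where 192 of all 7820 genes were, and 0.0128% of all genes were called. *Irgm1* there averaged 35.7 ± 12.02 CPM in the group labelled IL-33+ and 80.5 ± 15.9 CPM in the group labelled IL-33- (SD, n = 3). *Irf7*, the transcription factor that amplifies interferon production, was instead higher there, at 73.6 ± 5.79 CPM against 32.5 ± 9.62 CPM, from 2 to 18 UMIs per heart. In Tem/eff, *Iigp1* averaged 28.2 ± 12.6 CPM against 67.5 ± 19.1 CPM and *Igtp* 70.2 ± 10.3 CPM against 114 ± 24.9 CPM. In Tcm, *Ifit1* averaged 3.56 ± 3.11 CPM against 26.2 ± 14.8 CPM, but from 0 to 12 UMIs per heart. The adjusted p of each of these was at least 0.923 by limma.

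In NK cells, the most numerous type, *Lgals3bp*, a secreted glycoprotein, was at 82.3, 63.3 and 61.6 CPM in the group labelled IL-33+ and at 113, 106 and 105 CPM in the group labelled IL-33- (log2 difference -0.59, SE 0.24, adjusted p = 0.839 by limma). The groups did not overlap, which in NK cells held for 1 of 40 members lower and 1 higher. The UMI share of all members in NK cells stayed between 0.155% and 0.185% in the 6 hearts.

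In cDCs, *Bst2* was higher in the group labelled IL-33+. It was at 560.3, 658 and 1033 CPM there and at 389, 273 and 388 CPM in the group labelled IL-33-, from 18 to 295 UMIs per heart. The groups did not overlap, and the log2 difference was 1.05 (SE 0.25, unadjusted p = 0.000666, adjusted p = 0.295 by limma). When all genes with any UMI were tested, *Bst2* was called with an adjusted p of 0.0443 by limma, as were 20 of all 13218 genes. *Bst2* is also a marker of plasmacytoid DCs, and the other 4 markers of that list (*Siglech*, *Ccr9*, *Tcf4* and *Ly6d*) differed in the same direction. Their summed level was 1365, 2681 and 2783 CPM in the group labelled IL-33+ and 826, 196 and 910.5 CPM in the group labelled IL-33-, also without overlap. Cells with a UMI of *Siglech* or *Ccr9* were 11 of 38, 1 of 6 and 18 of 44 cDCs against 6 of 48, 1 of 9 and 3 of 26. In the remaining cDCs, chosen for description after the values were seen, *Bst2* was at 276, 292 and 216 CPM against 263, 225 and 164 CPM, and the groups overlapped. The part of cells with plasmacytoid DC markers in the *Bst2* difference was not tested. Of 40 members tested in cDCs, 14 were higher and 26 lower, with 2 higher and 3 lower at an unadjusted p of 0.05 or less, where 3.89% and 2.91% of all genes tested were. The direction of this count turned with limma-voom (22 higher, 18 lower) and with hearts of 10 or more cells (21 higher, 17 lower).

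In fibroblasts, 5 of 46 members were lower in the group labelled IL-33+ without overlap, where this held for 3.13% of all genes tested, and 3 of the 5 were IRGs. *Ifi47* (chromosome 11, 49076587 to 49096974) was at 87.9, 52.6 and 72.0 CPM in the group labelled IL-33+ and at 168, 386 and 189 CPM in the group labelled IL-33- (log2 difference -1.60, SE 0.44, adjusted p = 0.998 by limma). *Iigp1*, whose levels are given above, had a log2 difference of -0.63 (SE 0.29, adjusted p = 0.998), and the nearest hearts were at 842 and 866 CPM. Without replicate 2 of the group labelled IL-33+ this difference was -0.32. In the fibroblasts without endothelial markers both genes overlapped between groups, with *Ifi47* at 72.9, 58.0 and 47.2 CPM against 49.0, 638 and 175 CPM. *Irgm1* was at 263, 288 and 286 CPM against 354, 498 and 411 CPM (log2 difference -0.56, SE 0.32, adjusted p = 0.998). The other 2 were *Cmpk2* and *Sp100*. Of all genes, 0.0187% were called in fibroblasts, and 3 of 46 members were lower at an unadjusted p of 0.05 or less, where 1.12% of all genes tested were. When hearts with fewer than 10 fibroblasts were left out, leaving 2 per group, *Rsad2* and *Ifit1* were called with log2 differences of -2.48 and -2.40 (adjusted p = 2.16e-06 and 0.00467 by limma). That fit called 11 of all 10506 genes tested. With all hearts *Rsad2* in fibroblasts was at 67.9, 0 and 74.8 CPM against 543, 0 and 365 CPM. The zeros came from the hearts with 6 and 4 fibroblasts, which also gave the 609 and 35.7 CPM of *Ifit1*.

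In unconventional T cells, 3 of 43 members were lower without overlap and 0 higher, and 0.0272% of all genes were called. *Slfn5* there averaged 48.5 ± 48.9 CPM against 168 ± 56.2 CPM and *Irgm1* 62.9 ± 55.1 CPM against 150.1 ± 47.6 CPM, without overlap (adjusted p = 0.866 and 0.984 by limma). Without replicate 2 of the group labelled IL-33+, the log2 differences moved from -2.12 to -1.13 and from -1.71 to -0.58. These rest on 2 cells in replicate 2 of the group labelled IL-33+ and 4 in replicate 3 of the group labelled IL-33-. In B cells, where the median log2 difference of all genes was 0.28, *Sp100* was called only without replicate 3 of the group labelled IL-33- among the alternatives run (log2 difference 2.41, adjusted p = 0.0381 by limma).

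When each type was given equal weight in a heart, 40 of 47 members were lower in the group labelled IL-33+ and 7 higher, where 49.0% of all 14407 genes tested were lower. The median log2 difference was -0.19 for the members and 0.00 for all genes, and 0 members and 0% of all genes were called. At an unadjusted p of 0.05 or less, 6 of 47 were lower, where 2.15% of all genes tested were. *Irgm2* (chromosome 11, 58199618 to 58222782) averaged 22.1 ± 7.12 CPM in the group labelled IL-33+ and 38.9 ± 5.10 CPM in the group labelled IL-33- (SD, n = 3, log2 difference -0.63, SE 0.19, adjusted p = 0.922 by limma). *Irgm1* averaged 106 ± 11.8 CPM against 140.5 ± 20.8 CPM, and *Zbp1* 49.7 ± 9.43 CPM against 72.7 ± 13.8 CPM. These were the 3 members whose groups did not overlap, where 4.92% of all genes had groups apart in this direction. Without replicate 1 of the group labelled IL-33-, 27 of 47 members were lower and the median was -0.07. Without replicate 2 of the group labelled IL-33+, the median was -0.09.

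The contrast was then compared between myeloid types (macrophages, monocytes and cDCs) and lymphoid types (NK, NKT, Tn, Tcm, Tem/eff, Trm-like and Treg) within each heart. No member and 0% of all genes were called for a difference. The contrast was more negative in myeloid types for 36 of 47 members, where it was for 47.9% of all 13255 genes tested, with a median of -0.30. At an unadjusted p of 0.05 or less, 4 of 47 were more negative, where 2.11% of all genes were. These were *Gbp2* (-0.997, SE 0.36), *Gbp5* (-0.78, SE 0.29), *Oasl2* (-0.88, SE 0.35) and *Lgals3bp* (-0.92, SE 0.40), each with an adjusted p of 0.921 by limma. The median over members was -0.10 without replicate 2 of the group labelled IL-33+ and -0.13 without replicate 1 of the group labelled IL-33-, with 30 of 47 more negative in each case. Without the same hearts, *Gbp2* was at -0.58 and *Oasl2* at -0.53 respectively.

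In macrophages, 2 of 47 members were lower at an unadjusted p of 0.05 or less, where 2.22% of all genes tested were, and 1 was higher, where 1.82% were. The higher one was *Iigp1*, at 34.0, 160.5 and 202 CPM in the group labelled IL-33+ and 24.8, 10.2 and 53.3 CPM in the group labelled IL-33-, which overlapped (log2 difference 1.72, SE 0.51, adjusted p = 0.987 by limma). For other members, single hearts stood far apart within each group. *Rsad2* was at 46.2, 25.1 and 329 CPM in replicates 1 to 3 of the group labelled IL-33+ and at 482, 64.0 and 83.5 CPM in the group labelled IL-33-. *Isg15* was at 78.4, 83.0 and 373 CPM against 352, 55.4 and 26.3 CPM, and the 4 Ifit genes summed to 15.7, 0 and 221 CPM against 327, 79.3 and 36.0 CPM. Replicate 3 of the group labelled IL-33+ and replicate 1 of the group labelled IL-33- were thus highest for each, with 1 such heart in each group. The log2 difference between groups was -0.78 (SE 0.65) for *Rsad2* and 0.62 (SE 0.61) for *Isg15*, each with an adjusted p of 0.987 by limma.

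This order of hearts in macrophages was seen in members of some roles more than others. The 2 hearts held the 2 highest macrophage levels of 26 of 47 members (55.3%) and of 6.26% of all 9685 genes tested. This included 7 of 8 other antiviral effectors, 3 of 3 genes of the ubiquitin-like system, 3 of 4 Ifit genes and 3 of 5 OAS genes, but 1 of 5 GBPs and 1 of 5 IRGs. The 5 GBPs summed to 784, 480.2 and 787 CPM in the group labelled IL-33+ and 814, 536 and 812 CPM in the group labelled IL-33-. The order was chosen for description after the levels were seen, and no test was made of it. The plot of gene groups by heart shows macrophages and monocytes side by side.

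**Figure D4:**
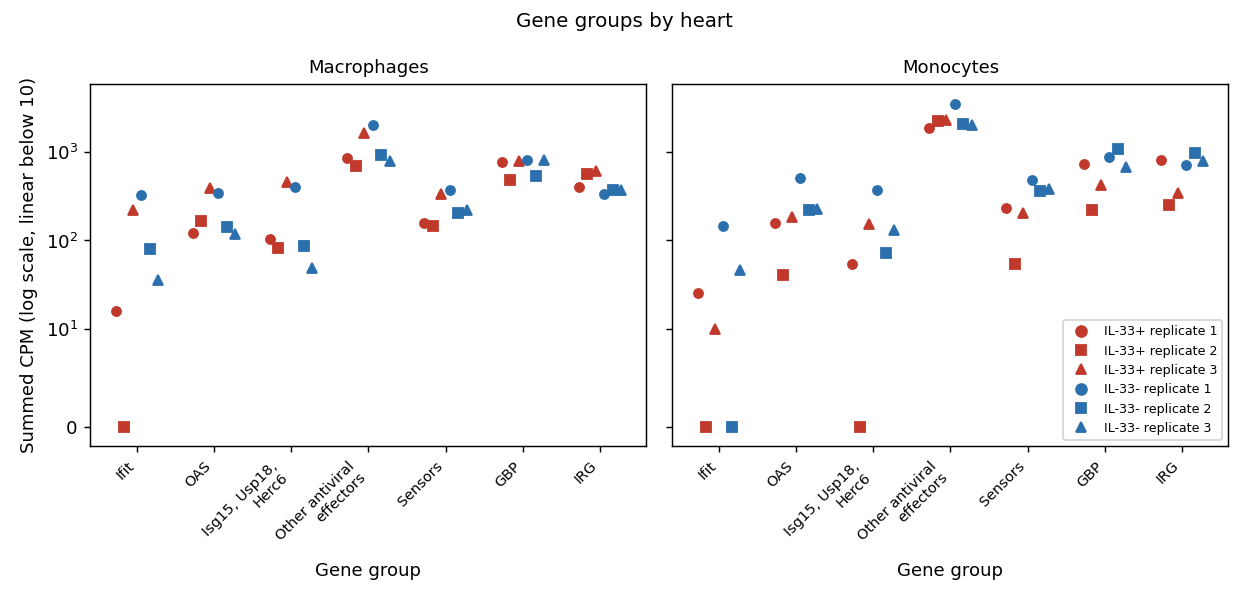
Summed CPM (vertical axis, log scale, linear below 10) of 7 groups of interferon-stimulated genes (horizontal axis) in macrophages and monocytes, with 1 point per heart, colour for graft group and symbol for replicate. In macrophages the red triangle and the blue circle (replicate 3 of the group labelled IL-33+ and replicate 1 of the group labelled IL-33-) are highest for Ifit, OAS and the *Isg15* group, while GBPs and IRGs are closer together.

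Within types, few cells held many of the members at once. Each cell was thinned to 1500 UMIs, the fewest of any cell, and the number of members with a UMI was counted. The median was 2 over all cells and the highest was 27, in a macrophage of replicate 1 of the group labelled IL-33-. At least 10 members were found in 14.7% of fibroblasts (55 of 375, exact binomial 95% interval 11.2% to 18.7%), 12.3% of monocytes (19 of 154, 7.59% to 18.6%) and 10.5% of macrophages (45 of 429, 7.75% to 13.8%). The share was 0.322% in NK cells (3 of 931), which shows the level in a type with a low content of these genes. Without thinning, the shares were 49.3%, 76.0%, 57.1% and 2.36%, at median depths of 5790, 6709, 6605 and 2712 UMIs. These intervals cover counting error only, and cells of a heart are not replicates.

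Among macrophages, cells with at least 10 members at this depth were 8 of 192, 0 of 10 and 22 of 98 in replicates 1 to 3 of the group labelled IL-33+ and 11 of 71, 3 of 21 and 1 of 37 in the group labelled IL-33-. The 0 of 10 allows a share of up to 30% by the rule of 3 counts, or 30.9% as the upper bound of the exact interval. The median UMIs per macrophage lay between 6244 and 7122 in the 6 hearts. Cells with 5 or more *Rsad2* UMIs before thinning were 14 in replicate 3 of the group labelled IL-33+ and 11 in replicate 1 of the group labelled IL-33-, and 2 in the other 4 hearts together.

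Cells in which *Rsad2* was found at this depth also held more of the other members. In macrophages the median of other members was 8 in 56 cells with *Rsad2* and 3 in 373 cells without, and in fibroblasts it was 13 in 27 cells and 3 in 348. In NK cells it was 3 in 21 cells and 2 in 910. Cells of all hearts were pooled for these medians. Of the 56 macrophages with *Rsad2*, 21 came from replicate 3 of the group labelled IL-33+ and 17 from replicate 1 of the group labelled IL-33-. These medians therefore mix differences between cells with differences between hearts. The plot of members per cell shows these 3 types.

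**Figure D5:**
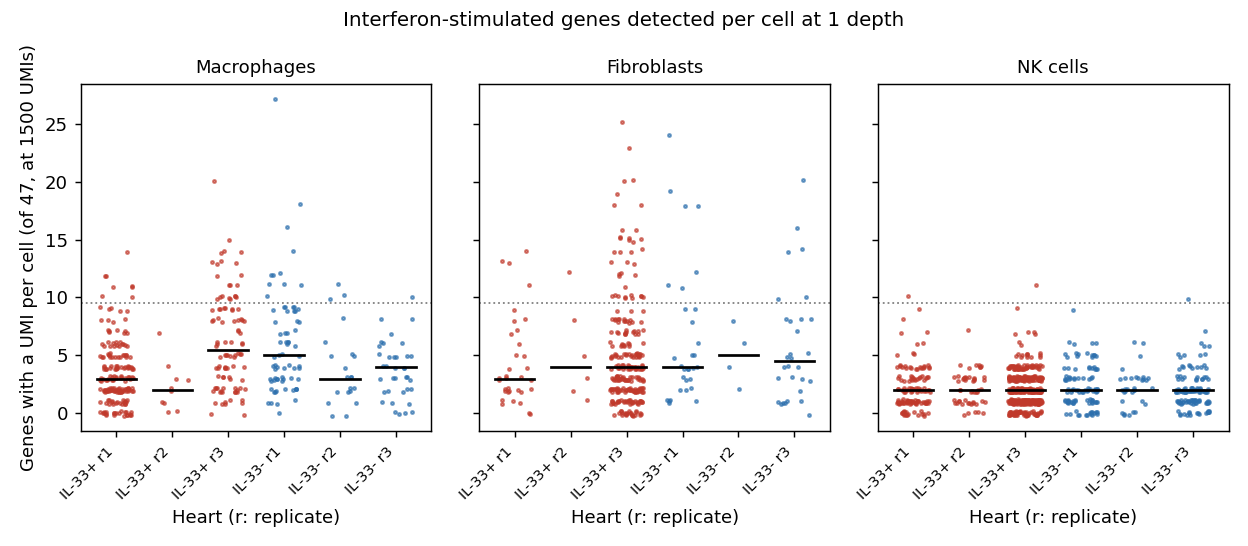
Number of the 47 interferon-stimulated genes with a UMI in each cell after thinning to 1500 UMIs (vertical axis) by heart (horizontal axis), for macrophages, fibroblasts and NK cells, with bars at the median and a dotted line below 10 genes. Macrophages and fibroblasts have tails of cells above the line, up to 27 genes, where NK cells have 3 such cells.

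Interferon transcripts themselves were scarce apart from *Ifng*. *Ifnb1*, which encodes interferon-β, had 37 UMIs in 11 cells, of which 16 were in a single macrophage of replicate 1 of the group labelled IL-33-. Before thinning, that macrophage held 37 of the 47 members in 14872 UMIs. The median macrophage held 11 before thinning, at 6605 UMIs. Macrophages were 7 of the 11 cells with *Ifnb1*. *Ifna2* had 1 UMI. *Ifng* had 1252 UMIs and was found in 32.9% of NKT cells, 27.1% of NK cells, 26.9% of Tem/eff and 21.7% of Tregs. In B cells, monocytes, macrophages and cDCs, which are not expected to make it, the share was between 1.75% and 3.497%, at median depths of 2292, 6709, 6605 and 6544 UMIs. As a level, *Ifng* was 165 ± 41.4 CPM in NK cells (SD, n = 6 hearts).

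The receptor genes were present in every type. *Ifnar1* lay between 49.9 CPM in fibroblasts and 205 CPM in cDCs, and *Ifngr1* between 209 CPM in B cells and 1734 CPM in NK cells. *Ifngr2*, the second chain of the interferon-γ receptor, was at 270 ± 66.5 CPM in monocytes and 4.23 ± 3.79 CPM in NKT cells. *Irf1* lay between 128 CPM in NKT cells and 296 CPM in Mo-DCs. Of the 69 further pathway genes listed, 62 had a column, 40 to 58 were tested in a type, and 0 were called between graft groups in any type. In monocytes, 4 of 46 were lower and 1 higher at an unadjusted p of 0.05 or less, where 2.57% and 2.3% of all genes tested were.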

How the data were processed

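Cells from 6 pooled hearts (3 labelled IL-33+, 3 labelled IL-33-) were profiled with 10x Genomics 3′ libraries. Per the submitters' processing notes and methods, reads were processed with Cell Ranger on mm10 and with Partek 10.0.23.0425, and cells were kept at 1500 to 15000 counts, 400 to 4000 genes and under 20% mitochondrial counts. The authors deposited log2(CPM + 1) per gene and cell and each cell's type, graft label and hashtag. How hashtags were assigned to cells is not given in the sources used here. Whole UMIs were rebuilt from the spacing of the low values of each cell, and 99.94% of low values lay within 0.05 of a whole UMI.

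For every type, CPM was averaged within a heart, and the heart was the replicate. The test was limma (version 3.58.1, R 4.3.3, with a trend in eBayes) on log2(mean CPM + 10) for genes with at least 10 UMIs and a UMI in at least 3 hearts, with Benjamini-Hochberg adjustment over all genes tested. Fold changes of low genes are understated on this scale. The limma fit was also run on simulated hearts with known changes, for monocytes, macrophages and NK cells, and the outcome is not given here. Each hashtag was taken as 1 heart, and p-values measure the spread between these hearts. Python 3.11.15 with numpy 2.4.6, scipy 1.17.1 and pandas 2.3.3 was used otherwise. The members, lists and tests were chosen with earlier results of these data known. Levels were described for the 12 members with the highest mean CPM and the highest of each role. Contrasts were described for up to 3 members per type with the smallest p, at 0.05 or less, whose groups did not overlap. Others were named after their values were seen. *Mx1* and 7 of the further pathway genes were not analysed here. The authors' count and gene limits were meant to remove doublets. No doublet caller was run and no cell was removed here, and an alternative left out cells with at least 2 T cell and 2 macrophage markers. The alternatives changed the pseudocount, filter, scaling, summing, model, hearts and cells used. A gene of the further pathway list is not reported here.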

Additional observations from a re-analysis of the deposited data

How the results depend on the processing

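Of 225 alternative counts of members called, 220 were 0. The others were 1 in B cells without a heart, 2 in fibroblasts with hearts of 10 or more cells, 2 in monocytes with a pseudocount of 50 CPM (*Gbp2*, adjusted p = 0.00183, and *Ifi47*, adjusted p = 0.0102, by limma), 4 in monocytes without a heart and 1 in cDCs with no filter. Of all genes tested, 11 of 10506 were called in that fibroblast fit and 8 of 7124 in the monocyte fit with 50 CPM. In the cDC fit 20 of 13218 were. When each heart was left out, the count ranged from 0 to 1 in B cells and from 0 to 4 in monocytes. Of 329 alternative log2 differences for 24 pairs of a member and a fit, 323 kept their direction and their side of the threshold, 6 passed the threshold and 0 changed sign. The pairs had been picked because their groups did not overlap. Leaving out a heart or changing the filter therefore could not change a sign, and the count of 0 says little about how firm the directions are. Members lower in monocytes numbered 29 to 42 when each heart was left out, members lower in the average over types 27 to 42, and members higher in Tn 17 to 24. With at least 30 UMIs required, 10 of 14 members tested in Tn were higher, and with no filter 25 of 45. Members highest in Mo-DCs numbered 3 rather than 7 when UMIs were summed per heart. Without the 3 members with the most UMIs the share was 0.315% in monocytes, 0.156% in NK cells, 0.135% in Tem/eff, 0.191% in Tregs, 0.184% in Trm-like cells, 0.219% in cDCs and 0.262% in unconventional T cells. Without thinning, chosen as an alternative after the data were seen, cells with 10 or more members were 57.1% of macrophages, 76.0% of monocytes, 49.3% of fibroblasts and 2.36% of NK cells. Unconventional T cells could not be fitted with hearts of 10 or more cells. No paired analysis was possible because the hashtags number the hearts from 1 to 6 and the groups share no number. In small types a heart's mean can rest on fewer than 10 cells.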

Other observations

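Other interferon-induced genes of the pathway list followed orders of their own. *Ly6e*, which encodes a surface protein, was at 1635 ± 256 CPM in monocytes and 1230.0 ± 287 CPM in macrophages (SD, n = 6 hearts), but also at 1133 ± 148 CPM in B cells, the type with the lowest share of UMIs from the 47 members, and at 219 ± 47.3 CPM in Tn. *Cxcl10*, a chemokine that attracts T cells, was highest in fibroblasts, at 207, 734 and 465 CPM in the group labelled IL-33+ and 1485, 283 and 679 CPM in the group labelled IL-33-, and was at 219 ± 94.0 CPM in macrophages. *Ly6a* (Sca-1) was highest in fibroblasts at 602 ± 290.3 CPM and reached 341 ± 139 CPM in Tregs. *Ifitm1*, a relative of *Ifitm3*, averaged 396 ± 242 CPM in cDCs and 193 ± 150.5 CPM in monocytes. *Socs1*, an inhibitor of the receptor kinases, was highest in fibroblasts (221 ± 204 CPM), where replicate 2 of the group labelled IL-33-, with 4 fibroblasts, was at 623 CPM.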
